A study of Rattus norvegicus with 16 samples.

Results

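The genes described here are 46 genes of the cell cycle and of DNA replication, chosen by name and read across sorted dendritic cells (DCs) and macrophages of the rat. Each was matched by its symbol to the rows (transcript clusters) of the array table, and the row with the highest mean over all arrays was used where a symbol had several. A row was found for 45 of the 46, among 23188 clusters in all, and Cdca8 had none. Of the 45, 18 were placed in an S phase and replication set and 27 in a mitosis set. The sets are kept apart below, though some of their genes also act in other phases.

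Thymus and spleen were taken from male Lewis rats. In each organ 4 populations were sorted. The first, called CD103- cells here, was CD103- CD45R- and CD172a+. Type 2 conventional DCs (cDC2) were CD103+ CD172a+, and type 1 (cDC1) were CD103+ CD172a-. All sorts took living CD45+ cells, and all but the macrophage sort also required MHC class II. Macrophages were CD45R- cells bound by HIS36, an antibody to rat Cd163. Before sorting, DCs were enriched by density centrifugation from spleen but with beads against MHC class II from thymus, and macrophages with beads against CD11b/c, so organ and isolation cannot be told apart for the DCs. Within an organ, population and isolation cannot be told apart where DCs are compared with macrophages. Each of the 8 groups held 2 arrays. The labels do not tell whether a pair stems from different animals, so p-values reflect the spread within such pairs, pooled over the 8 groups, which may be technical.

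A dividing cell first licenses its replication origins with the MCM helicase, then in S phase makes nucleotides and copies its DNA, and afterwards turns on the kinases, spindle motors and checkpoint proteins of mitosis. Genes of the first set are classic targets of E2F factors, and many genes of the second are controlled through CHR elements and CCAAT boxes. Mature conventional DCs are replaced from dividing precursors, and some divide in the tissue.

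The values are log2 signals of Clariom S rat arrays. Replicate arrays correlated at r = 0.9894 to 0.9936 across clusters, and array medians lay between 5.87 and 5.95. As a background level, 5.70 was taken, the 95th percentile of 1158 olfactory receptor clusters (median 4.14). Of the 45 genes, 43 exceeded it in at least 1 group mean and 34 in all 8, while Cdt1, which loads the MCM helicase, and Foxm1, a transcription factor of mitotic genes, stayed below it in every group. Of all clusters, 38.9% had every group mean below background. The shares of all clusters given below include them, so they are not shares among expressed genes. On the label check, the summed log2 level of 6 cDC1 markers was 88.82 to 94.01 on cDC1 arrays and 43.31 to 66.44 on all others, although all 6 lay above background in splenic cDC2 and in macrophages too. The 6 cDC2 markers did not set cDC2 apart. Their summed level was 68.59 to 69 in thymic CD103- cells, 61.65 to 62.12 in thymic cDC2, 49.88 to 52.18 in thymic cDC1 and 65.76 to 67.1 in thymic macrophages, and in the spleen 66.4 to 67.34, 65.26 to 65.66, 47.78 to 49.57 and 63.31 to 63.99 in that order.

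The E2F and CHR letters of the promoters differed in share between the gene sets, and the CCAAT box did not. The motifs were picked because they are known for such genes, so the shares are a description and not a test. RefSeq windows of 250 bases before to 50 after the start (build GRCr8) were found for 35 of the 45 genes, in 38 windows. An E2F site, read as TTTGGCGC or TTTCCCGC on either strand, occurred in 8 of 15 S phase windows (13 genes) and in 0 of 23 mitosis windows (22 genes), against 1.45% of all 33469 windows. A CHR element, TTTGAA on either strand, was in 15 of 23 mitosis windows and 1 of 15 S phase windows, against 18.3% of all windows. The CCAAT box, CCAAT on either strand, was in 16 of 23 mitosis and 10 of 15 S phase windows, against 37.5% of all. The letters of a CHR element and of a reverse CCAAT box can overlap. A match describes letters and is not a binding site, and a window without one says nothing of the factor.

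The 150 bases before the start are shown for 3 S phase and 4 mitosis genes whose levels are described below. They run 5′ to 3′ on the gene's strand, and capitals mark every match to the 3 motifs on either strand.
Mcm5 (chr19:13488663-13488812, plus strand): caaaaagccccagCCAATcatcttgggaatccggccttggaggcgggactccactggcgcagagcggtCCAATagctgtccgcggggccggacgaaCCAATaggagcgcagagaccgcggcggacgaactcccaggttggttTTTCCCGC
Mcm6 (chr13:42404353-42404502, minus strand): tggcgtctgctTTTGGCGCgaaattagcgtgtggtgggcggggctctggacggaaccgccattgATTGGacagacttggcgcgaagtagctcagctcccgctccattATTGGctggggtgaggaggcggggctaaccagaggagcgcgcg
Tyms (chr9:120776084-120776233, minus strand): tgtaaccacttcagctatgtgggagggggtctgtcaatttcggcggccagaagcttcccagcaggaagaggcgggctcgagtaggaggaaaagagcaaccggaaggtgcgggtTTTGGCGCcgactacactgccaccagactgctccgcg
Mki67 (chr1:199952594-199952743, minus strand): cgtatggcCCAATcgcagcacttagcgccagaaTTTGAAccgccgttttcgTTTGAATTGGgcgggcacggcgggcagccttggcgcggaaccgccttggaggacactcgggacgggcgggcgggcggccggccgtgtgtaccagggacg
Top2a (chr10:84473094-84473243, minus strand): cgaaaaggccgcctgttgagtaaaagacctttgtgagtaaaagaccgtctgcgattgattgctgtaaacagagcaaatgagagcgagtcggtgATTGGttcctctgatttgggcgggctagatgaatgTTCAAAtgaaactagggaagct
Cdk1 (chr20:19265143-19265292, plus strand): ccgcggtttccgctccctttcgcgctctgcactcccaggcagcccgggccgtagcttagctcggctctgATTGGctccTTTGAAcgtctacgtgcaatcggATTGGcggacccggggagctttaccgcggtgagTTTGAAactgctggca
Ccnb2 (chr8:79981659-79981808, minus strand): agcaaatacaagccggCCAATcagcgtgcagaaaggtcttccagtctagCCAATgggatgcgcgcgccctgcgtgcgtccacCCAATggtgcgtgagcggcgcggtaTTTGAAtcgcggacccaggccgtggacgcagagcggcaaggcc
The E2F letters stand in the promoters of Mcm5 and Mcm6 (helicase subunits) and of Tyms (thymidylate synthase). The mitosis promoters shown carry CHR letters beside CCAAT boxes, and in Mki67 a CHR element runs into a reverse CCAAT box. All promoters shown have matches and do not stand for their whole sets. The windows of Rrm1 and Pcna had no E2F match. Those of Kif11, Ccnb1, Cenpe and Kif20a had no CHR match, and those of Bub1 and Aurka had none to any of the motifs. Cdk1 and Ccnb2 have the same kinds of letters as Mki67 and Top2a, yet their levels across the groups were different, as given below.

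Across the 8 groups the genes mostly peaked in cDC2. Of the 45, 34 had their highest group mean in cDC2 of one organ, 7 in cDC1, 4 in macrophages and 0 in CD103- cells. All 20 mitosis genes that were highest in cDC2 were so in the thymus, while the 14 S phase genes were split, 8 in thymus and 6 in spleen. The lowest mean lay in macrophages for 28 genes, in CD103- cells for 13 and in cDC1 for 4. These ranks rest on group means and were not tested as such.

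The median over genes of each array's deviation from the gene's mean over 16 arrays was highest in cDC2 for both sets. For S phase genes it was 0.09 and -0.10 in thymic CD103- cells, 0.52 and 0.77 in thymic cDC2, -0.02 and -0.12 in thymic cDC1, and -0.66 and -0.65 in thymic macrophages. In the spleen it was 0.03 and -0.13 in CD103- cells, 0.66 and 0.52 in cDC2, -0.03 and 0.16 in cDC1, and -0.62 and -0.73 in macrophages. cDC2 stood apart on every array and macrophages were lowest, with CD103- cells and cDC1 between them in both organs.
The mitosis genes separated the organs more. Their median deviation was 0.18 and 0.00 in thymic CD103- cells against -0.48 and -0.61 in splenic ones, 0.80 and 0.86 in thymic cDC2 against 0.38 and 0.52 in splenic cDC2, and 0.46 and 0.23 in thymic cDC1 against -0.50 and 0.00 in splenic cDC1. Macrophages had -0.30 and -0.34 in the thymus and -0.57 on both arrays in the spleen. The thymic arrays lay above the splenic ones in every population, with no overlap. Over the 16 arrays the S phase and mitosis medians correlated at r = 0.7899, which is a description, since both come from the same arrays. In sorted pools, more cells in cycle and more RNA per cell cannot be told apart.

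**Figure D1:**
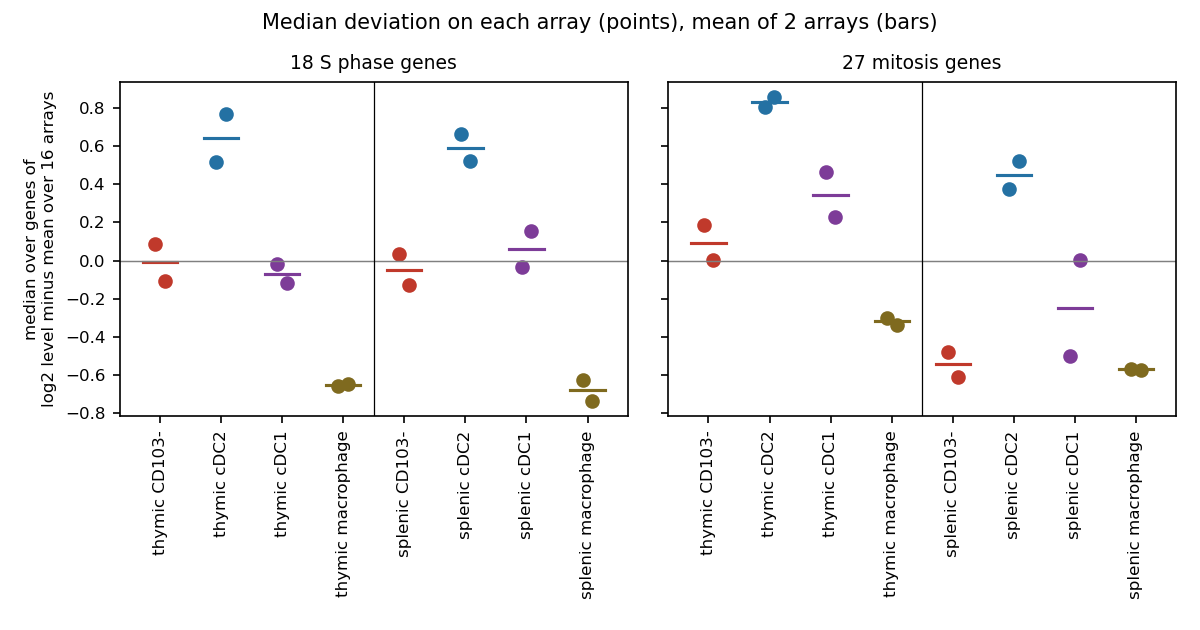
Median over 18 S phase genes (left) and 27 mitosis genes (right) of the log2 level minus the gene's mean over 16 arrays, for each array (points) and the mean of the 2 arrays of a group (bars). cDC2 sits highest in both organs and both gene sets, and the mitosis medians are higher on thymic than on splenic arrays of every population.

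**Figure D2:**
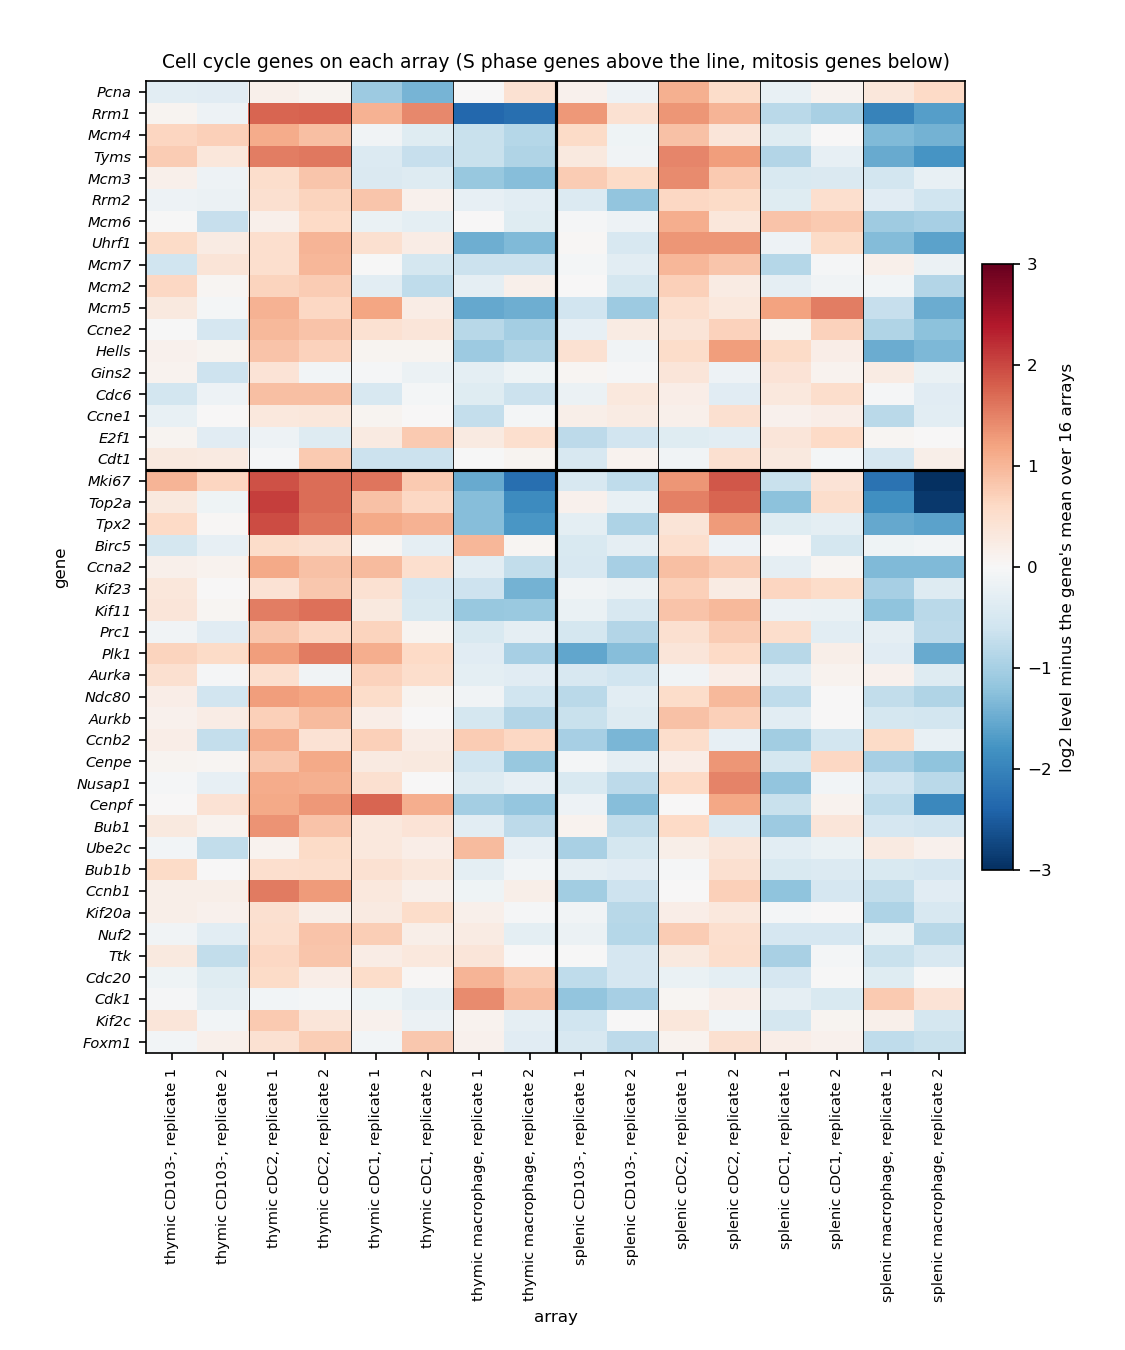
Log2 level minus the gene's mean over 16 arrays for each of the 45 genes (rows, S phase above the line and mitosis below) on each array (columns, thymus left of the heavy line). Red is above the gene's mean and blue below; the cDC2 columns are red in most rows, and Cdk1, Cdc20 and Ccnb2 are among the rows that are red in thymic macrophages.

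Among the S phase genes, the helicase subunits differed from one another. Mcm6 read 8.47 and 7.79 in thymic CD103- cells, 8.64 and 9.09 in thymic cDC2, 8.30 and 8.20 in thymic cDC1 and 8.51 and 8.13 in thymic macrophages. In the spleen Mcm6 read 8.46 and 8.34 in CD103- cells, 9.59 and 8.84 in cDC2, 9.34 and 9.27 in cDC1 and 7.43 and 7.49 in macrophages. In the spleen Mcm6 overlapped between cDC2 and cDC1.
Mcm2, another subunit, read 8.66 and 8.11 in thymic CD103- cells against 8.71 and 8.80 in thymic cDC2, and 8.07 and 7.52 in splenic CD103- cells against 8.76 and 8.29 in splenic cDC2. Rrm2, the small subunit of ribonucleotide reductase, read 8.26 and 7.49 in splenic CD103- cells against 9.28 and 9.25 in splenic cDC2 (-1.39, adjusted p = 0.00512 by limma), but was not called without splenic CD103- replicate 2 (adjusted p = 0.105). The difference of Mcm2 was not called in the spleen (-0.73, adjusted p = 0.17 by limma). Ccne1 (cyclin E1), at 4.63 to 5.92 over all arrays, was above background in 2 group means. Gins2, a part of the replicative helicase, lay at 5.70 to 6.74, and Mcm7, a further subunit, at 7.55 to 9.42.
Among the mitosis genes, Bub1, a kinase of the spindle checkpoint, read 7.37 and 7.17 in thymic CD103- cells, 8.43 and 7.93 in thymic cDC2, 7.39 and 7.49 in thymic cDC1 and 6.75 and 6.30 in thymic macrophages. Cenpe, a kinetochore motor, read 7.59 and 7.36 in splenic CD103- cells, 7.84 and 8.96 in splenic cDC2, 7.12 and 8.26 in splenic cDC1 and 6.64 and 6.44 in splenic macrophages. Replicates of Cenpe and of Bub1 lay farther apart in splenic cDC1 than in any other group.
The checkpoint kinases Bub1b and Ttk lay at 6.12 to 7.20 and 5.19 to 6.99 over the 16 arrays, and the kinase Aurka at 7.35 to 8.63. The kinesins Kif20a and Kif23, of cytokinesis, lay at 5.52 to 7.0 and 6.97 to 9.18, while Kif2c, which depolymerises microtubules, was above background in 1 group mean. Nuf2, a partner of Ndc80 at the kinetochore, lay at 5.33 to 7.04, Ube2c, which works with the anaphase-promoting complex, at 5.97 to 7.90, and Cenpf, a kinetochore protein, at 5.17 to 8.86 with its highest mean in thymic cDC1.

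The comparison of CD103- cells with cDC2 asks whether the sort that lacks CD103 differs from its CD103+ counterpart with the same CD172a. None of the 45 genes was called higher in CD103- cells in either organ, against 5.34% of all clusters in the thymus and 4.81% in the spleen. In the thymus 12 were lower, 4 of S phase and 8 of mitosis, against 4.91% of all clusters, and the median log2 difference over the 45 genes was -0.745, against -0.02 over all clusters. In the spleen 21 were lower, 6 of S phase and 15 of mitosis, against 4.21% of all clusters, with a median of -0.925 against -0.035. Calls are limma's moderated test at a Benjamini-Hochberg adjusted p under 0.05, and each difference is given with its standard error (SE).

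In the thymus Rrm1, the large subunit of ribonucleotide reductase, read 13.33 and 13.10 in CD103- cells against 15.01 and 15.02 in cDC2, a log2 difference of -1.80 ± 0.26 (SE; adjusted p = 0.00011 by limma). Kif11, the motor that pushes spindle poles apart, read 8.51 and 8.21 against 9.69 and 9.81 (-1.39 ± 0.25, adjusted p = 0.000954 by limma). For both genes the groups did not overlap, and these were the calls that held whichever array was left out. Top2a, which untangles replicated DNA, read 10.20 and 9.78 in CD103- cells against 11.98 and 11.57 in cDC2, 3.45-fold lower (adjusted p = 0.0106 by limma), but was not called without thymic cDC2 replicate 1 (adjusted p = 0.107) or thymic CD103- replicate 2 (adjusted p = 0.109). Tpx2 (a spindle assembly factor), Ndc80 (outer kinetochore), Ccnb1 (cyclin B1), Nusap1 (a microtubule bundler), Ccne2 (cyclin E2), Tyms, Prc1 (the midzone bundler), Ccna2 (cyclin A2) and Cdc6 (an MCM loader) were called lower as well, by log2 differences of -0.88 to -1.47 and with Cdc6 at or below -0.90, since its CD103- mean lay below background. Each of these 9 lost its call without at least 1 array. Mki67, the marker of cycling cells, read 13.30 and 12.94 in thymic CD103- cells against 14.20 and 13.97 in cDC2, a difference of -0.965 ± 0.394 that was not called (adjusted p = 0.156 by limma). Without thymic cDC2 replicate 1 the thymic count was 4, and without thymic CD103- replicate 2 it was 5.

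In the spleen Mki67 read 11.80 and 11.52 in CD103- cells against 13.60 and 14.14 in cDC2, 4.63-fold lower (-2.21 ± 0.39, adjusted p = 0.000972 by limma). Plk1, a kinase that drives entry into and exit from mitosis, read 6.42 and 6.69 against 8.33 and 8.57, a difference of -1.895 ± 0.362 (adjusted p = 0.00183 by limma). Uhrf1, which carries DNA methylation over to new strands, read 8.52 and 7.99 against 9.81 and 9.81 (-1.555 ± 0.275, adjusted p = 0.000893 by limma). The CD103- and cDC2 arrays did not overlap in any of these. Tyms was lower in both organs, by 1.01 in the thymus and 1.27 in the spleen on the log2 scale. The splenic count was 13 without splenic cDC2 replicate 2 and 11 without splenic CD103- replicate 2. Mki67, Ccna2, Cdk1, Plk1, Aurkb (the kinase of chromosome alignment), Kif11, Tyms and Uhrf1 kept their splenic calls whichever array was left out. Top2a, read at 10.03 and 9.69 in splenic CD103- cells against 11.41 and 11.65 in cDC2 (-1.67, adjusted p = 0.0185 by limma), was called with all 16 arrays and not without any 1 of the 4 arrays of these groups (adjusted p = 0.0547 to 0.13).

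Monocyte, macrophage and plasmacytoid DC markers moved with these groups. The summed log2 level of 8 monocyte markers was 108.08 to 108.82 in thymic CD103- cells against 79.52 to 80.36 in thymic cDC2, and 108.93 to 111.75 in splenic CD103- cells against 71.99 to 73.27 in splenic cDC2. Of 10 macrophage markers, 7 were called higher and 1 lower in CD103- cells in each organ. Their summed level was 115.39 to 117.82 in thymic CD103- cells against 95.28 to 99.55 in thymic cDC2, and 97 to 106.18 in splenic CD103- cells against 76.25 to 79.04 in splenic cDC2. Of 8 plasmacytoid DC markers, 3 were higher in thymic and 4 in splenic CD103- cells and 0 lower in either. Their part in the difference was not tested.

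**Figure D3:**
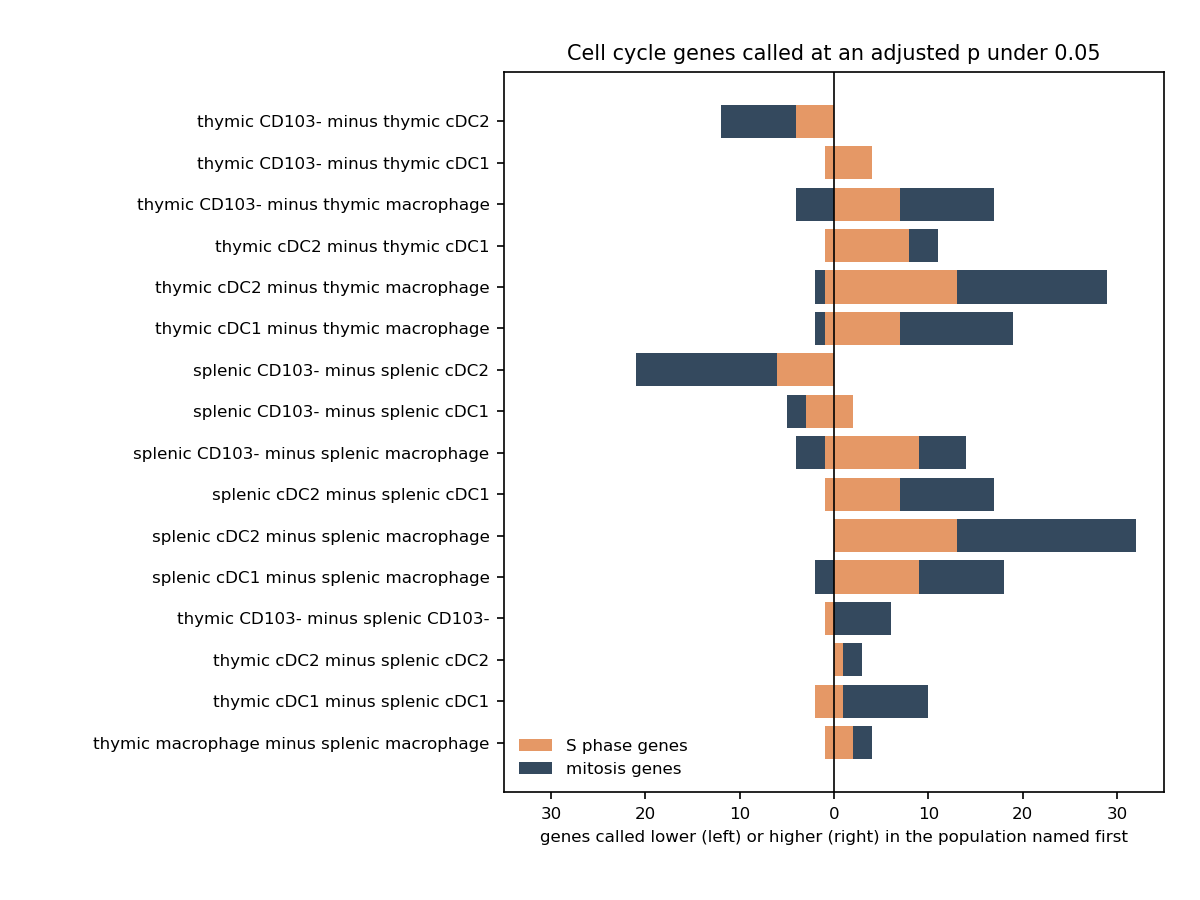
Number of cell cycle genes called higher (right) or lower (left) in the population named first at an adjusted p under 0.05, with S phase genes in orange and mitosis genes in dark blue. CD103- cells have no gene called higher than cDC2 in either organ, and cDC2 against macrophages has the longest bars, 29 higher in the thymus and 32 in the spleen.

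Between cDC2 and cDC1 the question is which of the 2 conventional types carries more of these transcripts. In the thymus 11 genes were higher in cDC2 and 1 lower, against 6.75% and 6.93% of all clusters, and the median difference was 0.585 against -0.005 over all clusters. In the spleen 17 were higher and 1 lower, against 7.86% and 8.21%, with a median of 0.67. The single lower gene in both organs was E2f1, a transcription factor of S phase genes. It read 5.22 and 4.98 in thymic cDC2 against 5.64 and 6.16 in thymic cDC1, and 5.02 and 5.05 in splenic cDC2 against 5.74 and 5.96 in splenic cDC1. The cDC2 means lay below background, so the differences, called at adjusted p of 0.0264 and 0.0206 by limma, are at or below -0.20 and -0.15. The thymic call was lost without thymic cDC1 replicate 2 or either thymic cDC2 array (adjusted p = 0.059 to 0.305), and the splenic one without splenic cDC1 replicate 2 or either splenic cDC2 array (adjusted p = 0.0824 to 0.137).

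Tyms read 11.26 and 11.30 in thymic cDC2 against 9.32 and 9.03 in thymic cDC1 (2.105 ± 0.251, adjusted p = 6.99e-06 by limma). In the spleen it read 11.19 and 10.98 in cDC2 against 8.86 and 9.48 in cDC1 (1.915 ± 0.251, adjusted p = 1.84e-05 by limma). All cDC2 arrays lay above all cDC1 arrays, and both calls held whichever array was left out. Kif11 also kept its call in both organs, at 1.685 in the thymus and 1.105 in the spleen. Mcm4 and Pcna, the sliding clamp of DNA polymerase, held likewise in the thymus, and Mcm3, Rrm1 and Nusap1 in the spleen. None of these 5 but Rrm1 was called in the test of the difference between organs given below.
Mki67 read 14.20 and 13.97 in thymic cDC2 against 13.89 and 13.08 in thymic cDC1, a difference of 0.60 ± 0.39 that was not called (adjusted p = 0.42 by limma). Top2a, at 11.98 and 11.57 against 10.78 and 10.53, was not called either (1.12, adjusted p = 0.107 by limma). In the spleen both were called, Mki67 at 1.71 and Top2a at 1.985 (adjusted p = 0.0047 and 0.00292 by limma). The splenic cDC1 arrays disagreed with each other: Mki67 read 11.63 and 12.69, and Top2a 8.66 and 10.43. Without splenic cDC1 replicate 1, neither was called (adjusted p = 0.0974 and 0.0769) and the splenic count was 6. Mki67 was also lost without splenic cDC2 replicate 2 (adjusted p = 0.0658). Without thymic cDC1 replicate 2 or thymic cDC2 replicate 2 the thymic count was 6 in each case.

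Markers of other cells moved with the cDC2 and cDC1 groups as well. Of 10 macrophage markers, 8 were higher and 1 lower in thymic cDC2, with a summed level of 95.28 to 99.55 in thymic cDC2 against 58.1 to 65.67 in thymic cDC1, and 4 were higher in splenic cDC2 (76.25 to 79.04 against 61.97 to 62.53). Of 10 B cell markers, 1 was higher and 7 lower in thymic cDC2, at a summed 73.33 to 74.25 in thymic cDC2 against 83.82 to 89.84 in thymic cDC1. Of 8 plasmacytoid DC markers, 5 were higher and 2 lower in splenic cDC2, at 70.41 to 72.95 in splenic cDC2 against 56 to 60.89 in splenic cDC1. Their part in the differences was not tested.

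**Figure D4:**
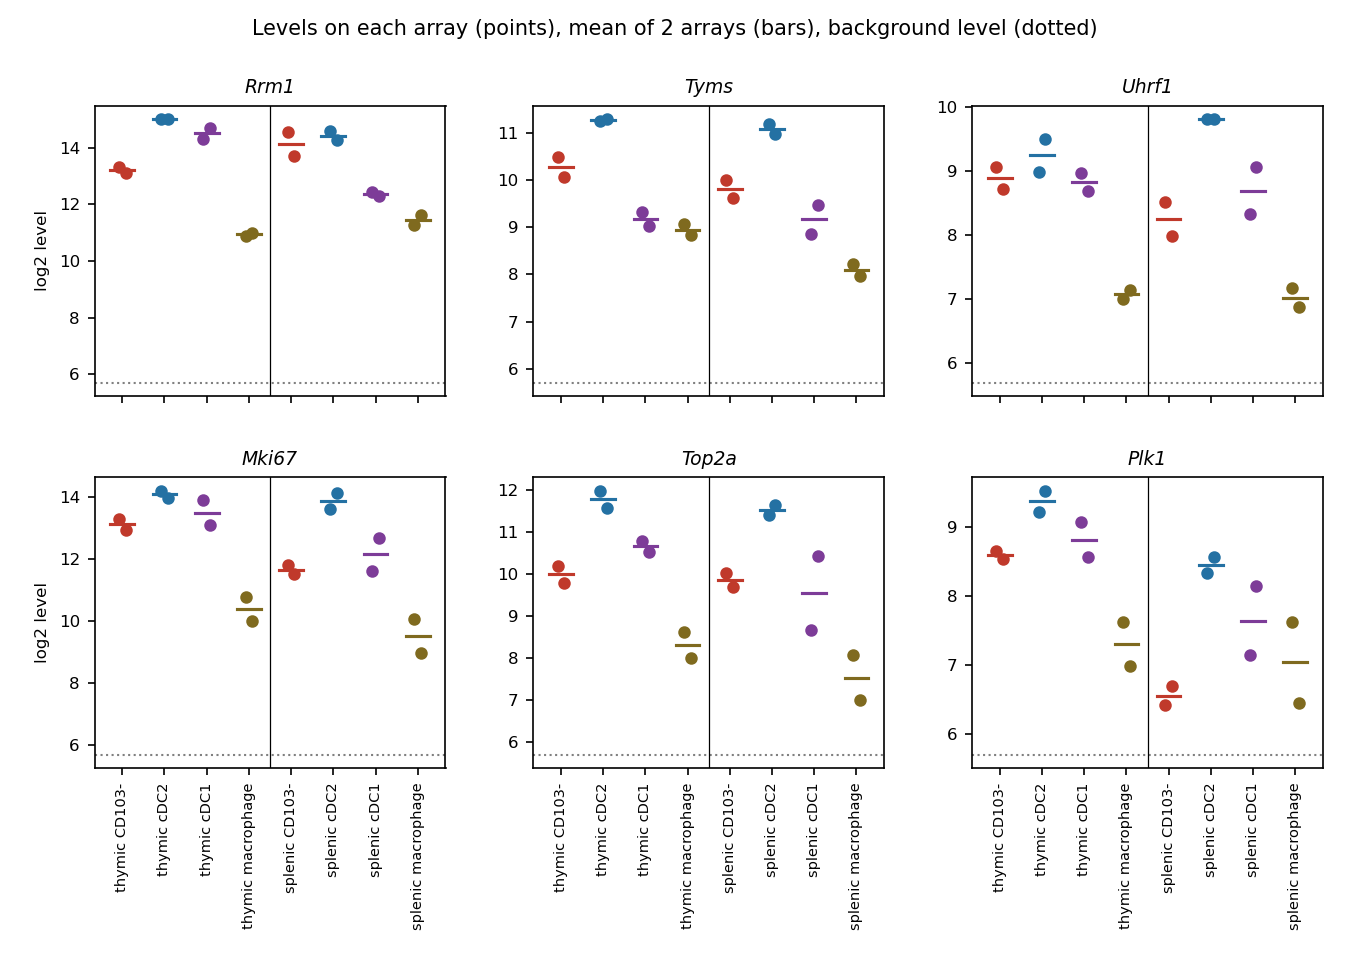
Log2 levels of Rrm1, Tyms, Uhrf1, Mki67, Top2a and Plk1 on each array (points) with the mean of 2 arrays (bars), in thymus left and spleen right of the line, and the background level of 5.70 dotted. cDC2 is highest for Tyms in both organs, and Rrm1 in splenic cDC1 sits near 12.37 while in thymic cDC1 it sits near 14.505.

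Against cDC1, the share of genes called in CD103- cells lay near that of all clusters or below it. In the thymus 4 genes were higher and 1 lower, all of S phase, against 8.66% and 9.09% of all clusters, and 0 of 27 mitosis genes were called by limma (5 at an unadjusted p under 0.05). Of these 27, 22 were lower in sign in thymic CD103- cells, 14 of them with both CD103- arrays below both cDC1 arrays, and their median difference was -0.365 against -0.03 over all clusters. In the spleen 2 were higher and 5 lower, against 8.63% and 9.47%. Mcm5, a helicase subunit, read 6.99 and 6.46 in splenic CD103- cells against 8.76 and 9.08 in splenic cDC1, 4.58-fold lower (adjusted p = 4.75e-05 by limma). Mcm3, another subunit of the same ring, ran the other way, with 9.69 and 9.51 against 8.48 and 8.49 (1.115, adjusted p = 0.00221 by limma). The other genes lower in splenic CD103- cells were E2f1, at or below -0.15 (adjusted p = 0.00131 by limma), Plk1 at -1.085 and Mcm6 at -0.905 (adjusted p = 0.0454 and 0.0275 by limma), and Cdk1, below background in both groups. Mcm6 and Cdk1 lost their calls when any 1 of the 4 arrays of these groups was left out (adjusted p = 0.0703 to 0.192). Plk1 lost its call without splenic cDC1 replicate 2 (adjusted p = 0.439), without either splenic CD103- array (adjusted p = 0.0899 and 0.216) and without any 1 of the cDC2 or thymic CD103- arrays, which enter through the shared spread (adjusted p = 0.0521 to 0.0572). In the thymus Tyms (1.095), Mcm4 and Pcna (0.91 each) were the higher genes above background, beside Cdt1 below it, and each of these lost its call without at least 1 array. Rrm1 read 14.55 and 13.72 in splenic CD103- cells against 12.45 and 12.29 in cDC1 (1.765 ± 0.262), but in the thymus 13.33 and 13.10 in CD103- cells against 14.31 and 14.70 in cDC1 (-1.29 ± 0.26), opposite in sign and called in both (adjusted p = 6.32e-05 and 0.00138 by limma). Rrm1, Mcm3, Mcm5 and E2f1 in the spleen, and Rrm1 in the thymus, kept these calls whichever array was left out. The thymic count was 1 without thymic cDC1 replicate 2 or thymic CD103- replicate 1, and 3 without thymic CD103- replicate 2. The splenic count was 4 without splenic CD103- replicate 2. Monocyte markers moved with these groups too, 7 of 8 being higher in CD103- cells in each organ, as did 8 of 10 macrophage markers in each organ. Of 10 B cell markers, 1 was higher and 6 were lower in thymic CD103- cells, and of 8 plasmacytoid DC markers 4 were higher in thymic and 5 in splenic CD103- cells. Their part was not tested.

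Against macrophages, more of the genes were called higher than lower in every DC population. In thymic CD103- cells 17 of the 45 genes were higher and 4 lower, against 19.5% and 18.4% of all clusters, and in splenic CD103- cells the numbers were 14 and 4, against 21.1% and 19.1%. In thymic cDC2 29 were higher and 2 lower (22.6% and 20.3%), and in splenic cDC2 32 were higher and 0 lower (22.8% and 19.8%). In thymic cDC1 19 were higher and 2 lower (23.3% and 20.4%), and in splenic cDC1 18 higher and 2 lower (23.5% and 19.7%). The gene sets differed in splenic CD103- cells, where 9 of 18 S phase genes were higher but 5 of 27 mitosis genes, a smaller share than that of all clusters. The 9 include Ccne1, whose means lay below background in both groups. The median difference there was 0.5175 for S phase and 0.075 for mitosis genes, against 0.16 over all clusters. In thymic CD103- cells 7 S phase and 10 mitosis genes were higher, with medians of 0.47 and 0.225 against 0.095 over all clusters. In cDC1 the medians for S phase and mitosis genes were 0.4075 and 0.67 in the thymus (0.13 over all clusters) and 0.6675 and 0.40 in the spleen (0.195 over all clusters). The splenic CD103- count was 11 without splenic CD103- replicate 1 and 10 without splenic macrophage replicate 1.

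Mki67 read 14.20 and 13.97 in thymic cDC2 against 10.78 and 10.02 in thymic macrophages, 12.9-fold higher (adjusted p = 3.62e-07 by limma), and 13.60 and 14.14 in splenic cDC2 against 10.07 and 8.96 in splenic macrophages, 20.5-fold higher (adjusted p = 5.33e-08 by limma). Rrm1 was 16.7-fold higher in thymic cDC2 (15.01 and 15.02 against 10.90 and 11) and 7.945-fold higher in splenic cDC2 (14.58 and 14.27 against 11.26 and 11.61). Hells, a chromatin remodeller of replicating cells, Uhrf1, Tyms and Mcm4 were higher in all 3 splenic DC populations; Hells averaged 5.65 in splenic macrophages, below background, so its differences there are at least 1.54, 2.26 and 1.76 in CD103- cells, cDC2 and cDC1.

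A few genes did not follow. Cdk1, the kinase that drives entry into mitosis, read 5.96 and 5.69 in thymic CD103- cells, 5.90 and 5.93 in thymic cDC2 and 5.87 and 5.71 in thymic cDC1, against 7.42 and 6.92 in thymic macrophages. All 3 thymic populations were lower than macrophages, by log2 differences of -1.345 ± 0.229, -1.255 ± 0.229 and -1.38 ± 0.23 (adjusted p = 0.000109, 0.000172 and 6.27e-05 by limma), and these calls held whichever array was left out. In the spleen Cdk1 was at or below -0.89 against macrophages in CD103- cells and in cDC1 (6.78 and 6.39 in macrophages, both DC means below background). It was not called in splenic cDC2, at 6.04 and 6.18. Over the 16 arrays Cdk1 correlated with the median pattern of its set at r = -0.07, where Ccna2 reached 0.94, Ndc80 0.93 and Plk1 0.91 (descriptions from shared arrays).

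Ccnb2 (cyclin B2) read 7.92 and 7.0 in thymic CD103- cells against 8.48 and 8.35 in thymic macrophages and was called lower (adjusted p = 0.043 by limma), but not without thymic CD103- replicate 2 (adjusted p = 0.408) or either thymic macrophage array (adjusted p = 0.106 and 0.159). A second row under the symbol Ccnb2 gave the same direction there, with a difference of -1.01 (adjusted p = 0.00691 by limma). The cluster name of the second row carries another chromosome number than that of the row used, which matches the promoter shown above. Whether the second row reads Ccnb2 itself or another locus was not tested. In the spleen both rows were called lower than in macrophages. The row used and the second row gave -1.36 and -1.305 in CD103- cells (adjusted p = 0.00505 and 0.000908 by limma). In splenic cDC1 they gave -0.97 and -0.845 (adjusted p = 0.0358 and 0.0195 by limma). Both splenic calls of the row used were lost without at least 1 array. The rows disagreed in thymic cDC2 against macrophages, at -0.725 (adjusted p = 0.0426 by limma) in the second row and 0.065 (adjusted p = 0.911) in the row used. Cdc20, an activator of the anaphase-promoting complex, read 6.02 and 5.78 in thymic CD103- cells against 7.15 and 6.91 in thymic macrophages (-1.13 ± 0.25, adjusted p = 0.00143 by limma). Birc5 (survivin) read 8.19 and 8.47 in thymic CD103- cells against 9.70 and 8.78 in macrophages (adjusted p = 0.0198 by limma), with the call lost without thymic macrophage replicate 1 (adjusted p = 0.323) or thymic CD103- replicate 1 (adjusted p = 0.133). Pcna read 13.44 and 13.13 in thymic cDC1 against 14.55 and 14.99 in macrophages (-1.485 ± 0.242, adjusted p = 5.15e-05 by limma). Ube2c was called lower in splenic CD103- cells, at 5.97 and 6.43 against 7.22 and 7.08 in splenic macrophages. E2f1 was called lower in thymic cDC2, with a mean below background, at 5.22 and 4.98 against 5.64 and 5.87 in thymic macrophages. In splenic CD103- cells E2f1 was called lower with both means below background. These calls of Ube2c and E2f1 were each lost without at least 1 array.

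Neutrophil markers moved with the macrophage groups. Of 8 such markers, 0 to 2 lay above background in the DC groups, against 6 in thymic and 5 in splenic macrophages. Their summed log2 level was 32.08 to 38.76 over the DC arrays, against 85.29 to 87.12 in thymic and 85.01 to 86.5 in splenic macrophages. Ngp averaged 16.04 in thymic and 14.86 in splenic macrophages. Mpo averaged 5.95 and 4.46 there, and Elane 3.75 and 4.15. In splenic macrophages 9 of 12 erythroid markers lay above background, with Hbb at 17.89. So did 7 of 8 natural killer (NK) cell markers, against 1 in splenic CD103- cells, 1 in splenic cDC2 and 2 in splenic cDC1. The summed level of 10 B cell markers was 90.1 to 93.69 in splenic macrophages, against 71.88 to 86.1 over the splenic DC arrays. Of these 10, 2 were called higher in each splenic DC population than in macrophages. The part of all these markers in the levels of Cdk1, Ccnb2, Cdc20, Birc5, Pcna, Ube2c and E2f1 was not tested.

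**Figure D5:**
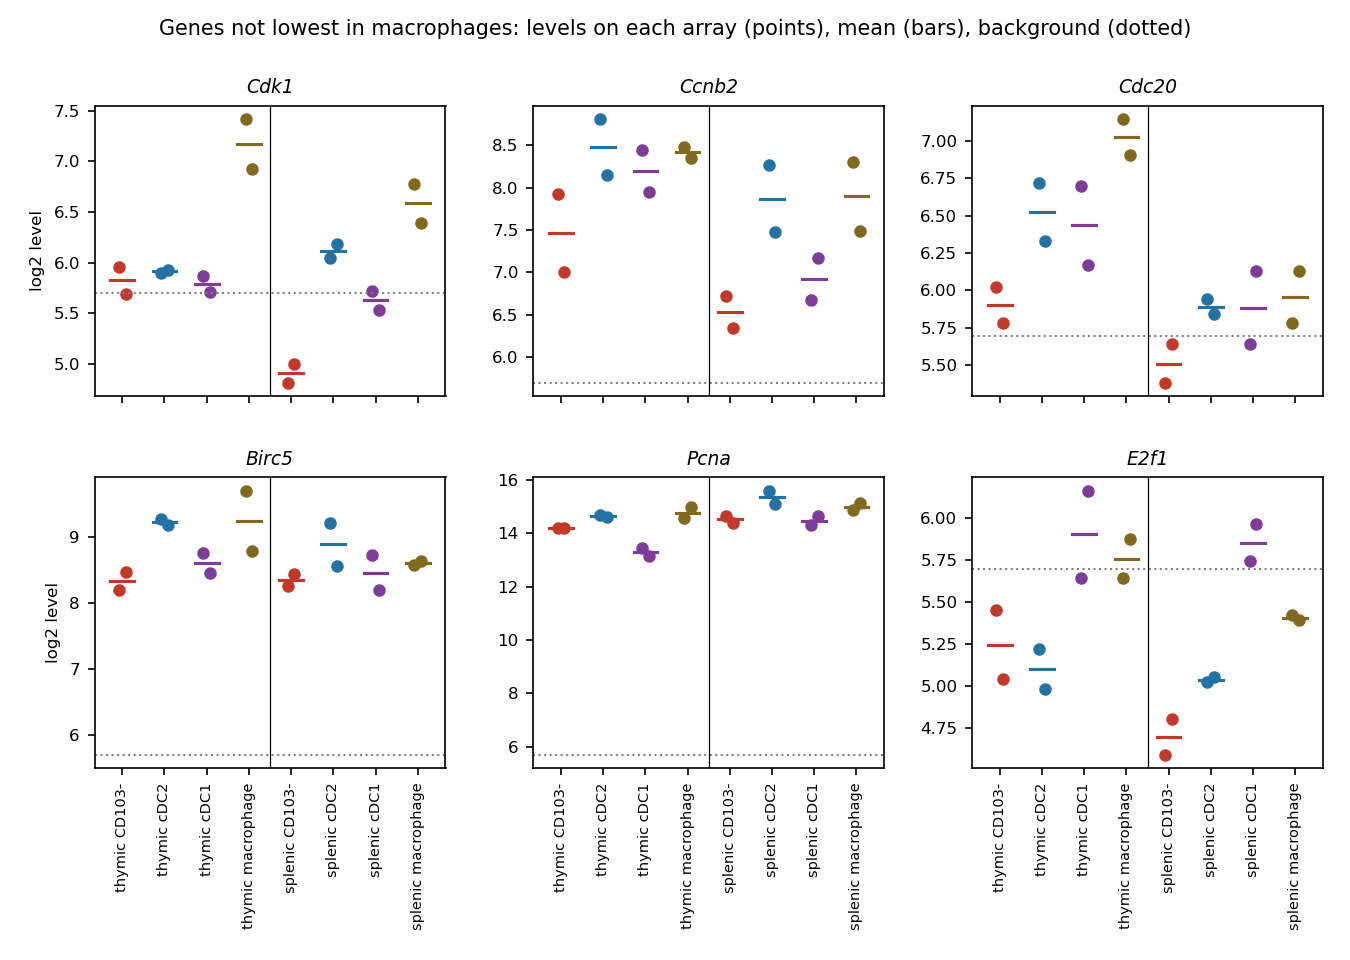
Log2 levels of Cdk1, Ccnb2, Cdc20, Birc5, Pcna and E2f1 on each array (points) with the mean of 2 arrays (bars), and the background level of 5.70 dotted; the y axes differ between panels. Thymic macrophages have the highest mean for Cdk1, Cdc20 and Birc5, and E2f1 is highest in thymic cDC1 and lies close to background.

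Between the organs, the genes were compared within each population. In CD103- cells 6 genes were higher in the thymus, all of mitosis, and 1 lower, against 7.12% and 5.27% of all clusters. In cDC2 3 were higher and 0 lower (7.99% and 6.60%), in cDC1 10 higher and 2 lower (6.69% and 5.38%), and in macrophages 4 higher and 1 lower (6.21% and 7.53%). Of the 27 mitosis genes, 26 were higher in sign in the thymus in each of CD103- cells, cDC2 and cDC1, and 22 in macrophages. The median difference over these genes was 0.55 in CD103- cells and 0.30 in cDC2, each against -0.015 over all clusters. It was 0.365 in macrophages, against 0.045 over all clusters. In cDC1 it was 0.72 over mitosis genes and -0.09 over S phase genes, against -0.03 over all clusters.

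Plk1 read 8.65 and 8.54 in thymic CD103- cells against 6.42 and 6.69 in splenic ones, 4.11-fold higher (adjusted p = 0.000804 by limma), and its call held whichever array was left out. Mki67 read 13.30 and 12.94 against 11.80 and 11.52 (1.46 ± 0.39, adjusted p = 0.0194 by limma), a call lost without any 1 of these 4 arrays (adjusted p = 0.0584 to 0.138). Rrm1 went the other way, at 13.33 and 13.10 in thymic CD103- cells against 14.55 and 13.72 in splenic ones (adjusted p = 0.0264 by limma), also lost without splenic CD103- replicate 1 (adjusted p = 0.344) or either thymic CD103- array (adjusted p = 0.0633 and 0.178). The count for CD103- cells was 1 without thymic CD103- replicate 1 and 2 without thymic CD103- replicate 2. It was 4 without either splenic array.
In cDC1, Rrm1 read 14.31 and 14.70 in the thymus against 12.45 and 12.29 in the spleen, 4.39-fold higher (adjusted p = 1.42e-05 by limma). Tpx2 read 10.66 and 10.55 against 9.15 and 9.23 (1.415 ± 0.304, adjusted p = 0.00362 by limma), and Pcna 13.44 and 13.13 against 14.30 and 14.64 (-1.185 ± 0.242, adjusted p = 0.0024 by limma). These 3 calls held whichever array was left out, while the count of 12 was 4 without thymic cDC1 replicate 1 and 3 without splenic cDC1 replicate 1. In cDC2 and in macrophages no call held through every such fit. The cDC2 count was 0 without thymic cDC2 replicate 1 and 1 without thymic cDC2 replicate 2, and the macrophage count 0 without thymic macrophage replicate 1, 3 without replicate 2, 2 without splenic macrophage replicate 1 and 1 without its replicate 2. Mki67, at 14.20 and 13.97 in thymic cDC2 against 13.60 and 14.14 in splenic cDC2, was not called (0.215, adjusted p = 0.823 by limma).

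Thymocyte markers moved with the organ. Of 18 T cell and thymocyte markers, 12 to 14 lay above background in the thymic groups against 8 to 10 in the splenic groups. The summed log2 level was 132.18 to 145.83 on thymic and 108.82 to 115.36 on splenic arrays. In CD103- cells 7 of the 18 were called higher and 1 lower in the thymus, with 10 not called. The numbers higher and lower were 11 and 0 in cDC2, 12 and 1 in cDC1, and 10 and 1 in macrophages. Rag1 averaged 10.02 in thymic CD103- cells against 7.10 in splenic ones, and 11.91 in thymic cDC1 against 7.43 in splenic cDC1. Cd3e averaged 7.79 in thymic and 5.42 in splenic CD103- cells. Of 10 B cell markers, 6 were higher and 1 lower in thymic cDC1 than in splenic cDC1, at a summed 83.82 to 89.84 against 71.88 to 78.09, while 8 were lower in thymic macrophages, at 64.1 to 64.13 against 90.1 to 93.69. Relative to the splenic counterpart, thymic CD103- cells had 5 of 10 macrophage markers higher and 1 lower, and thymic cDC2 had 7 higher and 1 lower. The part of these markers in the organ differences was not tested.

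The test of the difference between organs (interaction) called 2 genes for CD103- against cDC2 and the same 2 for cDC2 against cDC1, against 3.55% and 6.20% of all clusters. Both are S phase genes, Rrm1 and Cdc6. The thymic CD103- to cDC2 difference of Rrm1, -1.80, stood against -0.29 in the spleen (adjusted p = 0.0271 for the interaction, by limma). That of Cdc6, whose thymic cDC2 arrays read 6.60 and 6.59 and whose thymic CD103- arrays read 5.13 and 5.55, was at or below -0.90, and in the spleen its means were 5.755 in CD103- cells and 5.62, below background, in cDC2 (adjusted p = 0.0423 by limma for the interaction). For cDC2 against cDC1, Rrm1 was 0.51 in the thymus against 2.055 in the spleen (adjusted p = 0.0152 by limma for the interaction). Cdc6 was at least 0.90 in the thymus, where its cDC1 mean lay below background, and at or below -0.41 in the spleen, where its cDC2 mean did (adjusted p = 0.00814 by limma for the interaction, which was fitted to the values below background as they stand). Each of the 4 calls was lost without at least 1 array. The comparisons share the cDC2 arrays, so the pairs are not independent. The other genes in the list were not called for the interaction, which does not show that their differences were the same in both organs.

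Other genes of the pathway were read from lists chosen with earlier results of these data known, again between CD103- cells and cDC2, where the share of all clusters called lower was 4.91% (thymus) and 4.21% (spleen). Of 49 further replication genes, thymic CD103- cells had 3 lower, close to the share of all clusters, and 0 higher, with a median of -0.275. Splenic CD103- cells had 13 lower and 0 higher, with a median of -0.54. Lig1, the ligase that joins Okazaki fragments, averaged 9.79 in thymic CD103- cells against 12.79 in thymic cDC2 (-3.0, adjusted p = 7.96e-07 by limma) and 12.52 against 14.76 in the spleen (-2.235, adjusted p = 2.51e-05 by limma). Of 58 further mitosis genes, thymic CD103- cells had 15 lower and 1 higher, and splenic ones 20 lower and 0 higher. The one that was higher was Ckap2l, a spindle protein (2.045, adjusted p = 0.000163 by limma).
Of 23 G1 cyclins, kinases and regulators, thymic CD103- cells had 4 lower and 1 higher, and splenic ones 6 lower and 1 higher. Ccnd1 (cyclin D1) was lower in both, with means of 11.85 against 13.80 in the thymus and 13.56 against 14.74 in the spleen (adjusted p = 9.59e-06 and 0.00195 by limma). Of 20 inhibitors and quiescence genes, thymic CD103- cells had 2 higher and 1 lower, and splenic ones 2 higher and 3 lower, with medians of 0.06 and 0.0825. Cdkn1a, the CDK inhibitor p21, averaged 13.12 in splenic CD103- cells against 10.96 in splenic cDC2 (2.16, adjusted p = 0.00624 by limma), whereas in the thymus it averaged 14.63 against 15.04.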

How the data were processed

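Gene expression was read on 16 Clariom S rat arrays, 2 for each of 8 groups. The deposited values are log2 signals, made with the Transcriptome Analysis Console per the submitters' processing notes, with its version, normalization and background correction not given in the sources used here. Both deposited tables held identical values (largest difference 0), and no further scaling was applied. The number of arrays limits the precision.

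With limma 3.58.1 in R 4.3.3, means of the 8 groups were estimated for all 23188 clusters in one fit (8 residual and 9.21 prior degrees of freedom), and p-values were adjusted by Benjamini-Hochberg over all clusters within each of 18 contrasts. A gene was called at an adjusted p under 0.05. Where a group mean lay below background, the difference is given as a bound, the distance of the other mean from the background level, with no SE. Interactions were not bounded. Called genes with both means below background stayed in the counts, such as Cdt1 in thymic cDC2 against cDC1 and Foxm1 in splenic CD103- cells against cDC2. The fit was run on simulated arrays with independent noise and a small set of clusters changed in a single comparison. That check does not cover replicate arrays that disagree, nor contrasts with as many changed clusters as found here.

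The members and lists were chosen with earlier results of these data known, and the background level was set after values had been seen. Named genes could be any of the 46, with 24 fixed genes named whatever their result, up to 6 called members per direction in each contrast with the largest difference, any member against the majority, up to 5 genes per direction of the further lists and 4 of a marker list. Same-numbered replicates deviated together weakly at most (correlation over 0.1 in 4 of 28 pairs of groups, range -0.0677 to 0.1823). They were not paired in the main fit, and a replicate block was run as an alternative. Promoter windows came from RefSeq, build GRCr8. The alternatives were a fit to the compared groups only, a filter on dim clusters, quantile normalization, median centring, a replicate block, trended and robust eBayes, array weights, a log2 difference of at least 1, and leaving out each array.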

Additional observations from a re-analysis of the deposited data

Results flagged for a closer look

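For Rrm1 and Cdc6 the difference between populations was not the same in thymus and spleen by the test of the interaction. These 2 of the 45 genes were called in each interaction, against 3.55% and 6.20% of all clusters, so the count lay near that share. A fit to the compared groups only called neither for CD103- cells against cDC2. For CD103- cells against cDC2 the thymic difference minus the splenic one was -1.51 for Rrm1 and -1.39 for Cdc6. For cDC2 against cDC1 it was -1.545 for Rrm1 and 1.66 for Cdc6. The adjusted p of limma lay between 0.00814 and 0.0423, each call was lost without at least 1 array, and Cdc6 lay near or below background in most groups, with its values there used as they stand.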

How the results depend on the processing

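Of 249 called values of the 45 genes, 120 kept their direction and call in every alternative run per gene, which left aside the required log2 difference of at least 1 and, for the filter on dim clusters, covered the 244 values that passed it. None of the called values reversed in these. With the replicate number as a replicate block, all 249 stayed called, and the counts were 15 and 21 for thymic and splenic CD103- cells against cDC2. Requiring a log2 difference of at least 1 left 2 calls in thymic CD103- cells against cDC1, 11 in splenic CD103- cells and 13 in splenic cDC1 against macrophages, 2 between organs in CD103- cells, 1 in cDC2 and 1 in macrophages. A fit to the compared groups only called 4 between organs in CD103- cells, 6 in cDC1 and 0 for the interaction of CD103- cells with cDC2, where trended and robust eBayes called 1. Leaving out 1 array at a time, in fits where the lone array is assumed to vary like the other groups, gave 4 to 13 calls for thymic CD103- cells against cDC2, 11 to 21 for splenic ones, 1 to 7 and 4 to 9 for thymic and splenic CD103- cells against cDC1, and 10 to 18 for splenic CD103- cells against macrophages. It gave 6 to 15 for thymic cDC2 against cDC1 and 6 to 20 in the spleen. Between organs it gave 1 to 8 in CD103- cells, 0 to 4 in cDC2, 3 to 13 in cDC1 and 0 to 5 in macrophages, and 0 to 2 and 1 to 2 for the interactions of CD103- cells with cDC2 and of cDC2 with cDC1. Uncalled values changed sign in these fits: Rrm1 in splenic CD103- cells against cDC2 lay between -0.705 and 0.125, Cdc6 there, near background, between -0.125 and 0.395, and Mki67 in thymic against splenic cDC2 between -0.055 and 0.485. Apart from fewer samples, the cause was not tested. Signals near background limit Cdc6, E2f1, Cdk1, Cdt1, Ccne1, Kif2c and Foxm1.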
